A study of Mus musculus with 5 samples.

Results

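The 9 genes described here encode the receptors, growth factor, surface and lysosomal antigens and transcription factors by which a macrophage is commonly recognised: Csf1r, Csf1, Csf2ra, Adgre1, Cd68, Spi1, Cebpa, Cebpb and Irf8. They were taken by name from the 21878 genes of the deposited table, and all 9 were found and passed the filter on low values, as did 10893 genes in all. RNA-seq had been done on bone marrow-derived macrophages (BMDMs) treated with lipopolysaccharide (LPS), a bacterial stimulus, in 2 wild-type replicates of genotype Kdm6aF/Y, numbered 1 and 3, and 3 Kdm6a-deficient replicates of genotype Kdm6aF/Y;Lyz2-Cre, numbered 1, 2 and 3. Both genotypes carry the floxed Kdm6a allele on their single X chromosome, and only the Kdm6a-deficient group carries Cre, inserted into the myeloid lysozyme gene Lyz2. According to the methods of the study, the mice were adult males on a C57BL/6J background, marrow cells were grown in macrophage colony-stimulating factor (M-CSF) and then without it, and RNA samples were pooled. The dose and duration of LPS are stated there for polarised BMDMs in general and not for the sequenced samples. Whether the samples came from separate mice is stated in none of the sources used here, so the p-values describe the spread between these samples alone, which may be technical.

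M-CSF, encoded by Csf1, binds the receptor tyrosine kinase encoded by Csf1r and keeps macrophages alive, and the same receptor also binds interleukin 34. GM-CSF acts through a separate receptor, of which Csf2ra encodes the ligand-binding alpha chain. Spi1 encodes PU.1, an ETS factor required for the myeloid lineage and a regulator of Csf1r, which works with the C/EBP factors and with the interferon regulatory factor encoded by Irf8. Adgre1 encodes the surface antigen F4/80 and Cd68 a glycoprotein of lysosomes, both in wide use as macrophage markers.

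The sequence before the start of a gene is where such factors are known to bind. Windows of 250 bases before the start were therefore read from the RefSeq promoter table of build GRCm38.p6. They were obtained for 6 of 9 members, and none was read for Csf1r, Adgre1 and Spi1. Member windows were not taken from every chromosome, so a missing window does not show that the gene lacks an entry. Of the 7 windows found, since Irf8 has 2 starts, the 4 that hold at least 1 searched motif are printed 5′ to 3′ on the strand of the gene, with every match in capitals. Both strands were searched for GAGGAA (the PU.1 core), TTGCNNAA (for C/EBP factors, with a free centre), TTCNNNGAA (for STAT factors), the ETS-IRF composite element and TATAAA (the TATA box).
Cd68 chr11:69666171-69666420: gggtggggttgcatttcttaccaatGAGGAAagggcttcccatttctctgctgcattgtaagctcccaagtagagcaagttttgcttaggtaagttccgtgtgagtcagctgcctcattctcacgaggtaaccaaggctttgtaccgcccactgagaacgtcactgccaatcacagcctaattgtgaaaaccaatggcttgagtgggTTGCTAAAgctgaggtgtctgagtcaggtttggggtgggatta
Csf2ra chr19:61228419-61228668: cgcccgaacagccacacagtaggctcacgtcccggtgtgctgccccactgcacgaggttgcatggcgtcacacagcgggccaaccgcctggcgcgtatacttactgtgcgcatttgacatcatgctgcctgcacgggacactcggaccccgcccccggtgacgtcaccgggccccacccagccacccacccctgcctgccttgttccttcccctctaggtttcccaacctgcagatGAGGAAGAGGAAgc
Cebpa chr7:35119043-35119292: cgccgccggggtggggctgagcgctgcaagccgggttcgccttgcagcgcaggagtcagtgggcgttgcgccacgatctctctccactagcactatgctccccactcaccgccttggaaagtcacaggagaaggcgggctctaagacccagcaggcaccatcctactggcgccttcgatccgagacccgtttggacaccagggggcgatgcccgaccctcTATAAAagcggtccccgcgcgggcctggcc
Irf8 chr8:120736108-120736357: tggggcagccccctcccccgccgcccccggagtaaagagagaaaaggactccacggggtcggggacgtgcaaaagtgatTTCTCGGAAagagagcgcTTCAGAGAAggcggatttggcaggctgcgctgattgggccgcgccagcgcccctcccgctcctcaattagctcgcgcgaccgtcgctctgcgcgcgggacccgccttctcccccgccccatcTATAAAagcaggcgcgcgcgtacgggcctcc
Cd68 (minus strand) held GAGGAA beginning 225 bases before the start and TTGCTAAA 43 bases before it. Csf2ra (minus strand) held 2 copies of GAGGAA in direct succession, beginning 14 and 8 bases before the start. Cebpa (plus strand) held TATAAA 30 bases before the start. The first Irf8 window (plus strand) held STAT elements at 171 and 153 bases and TATAAA 31 bases before the start. The second Irf8 window and those of Csf1 and Cebpb held none of the motifs. Among all 32851 windows of this length, 23.3% held GAGGAA, 9.56% TTGCNNAA, 7.02% TTCNNNGAA, 2.3% the ETS-IRF element and 12.4% TATAAA. A match of letters is not a measured binding site.

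The targeted gene Kdm6a (GeneID 22289), a histone H3 demethylase, measured 3.72 and 2.91 FPKM (fragments per kilobase of a transcript, scaled by the mapped fragments of a sample) in wild-type BMDMs, against 2.81, 1.77 and 2.44 in Kdm6a-deficient BMDMs. Each of the latter 3 lay below both wild-type values, and the difference did not pass the threshold (log2 fold change −0.38, standard error 0.15, adjusted p = 0.268, limma). The study reported that Kdm6a protein was abolished in BMDMs of these mice, whereas the values here are RNA of the gene as a whole. Between 10641 and 10769 genes were at 1 FPKM or more in each sample. No read counts of single samples were used, so depth is unknown. The genotypes lay apart on principal component 1, with 50.2% of the variance, whereas Kdm6a-deficient sample 2 stood apart on component 2, with 32.5%, at −14.5 against 9.22 and 4.31 in the other Kdm6a-deficient samples. Across all tested genes limma called 188 genes as increased (1.73%) and 238 as decreased (2.18%) by Kdm6a deficiency at adjusted p under 0.05, 3.91% in either direction.

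The macrophage identity genes were expressed in every sample of both genotypes, and none of the 9 passed that threshold (0 of 9, against the 3.91%). At an unadjusted p under 0.05, 3 were higher (Spi1, Csf2ra and Cd68) and 1 was lower (Cebpa), where the background over all tested genes was 8.04% higher and 9.22% lower, 17.3% together. In 4 genes every Kdm6a-deficient value was above both wild-type values (Csf1r, Csf2ra, Cd68 and Spi1), in 2 every value was below (Cebpa and Irf8), and in 3 the genotypes overlapped. Such non-overlap was found in 16.7% of tested genes in the higher and 19.2% in the lower direction, 35.9% together. The median log2 fold change of the 9 genes was 0.079, beside 0.0048 over all tested genes. Because the values come from bulk RNA, a change in the share of macrophages in a dish and a change in RNA per macrophage cannot be told apart.

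**Figure D1:**
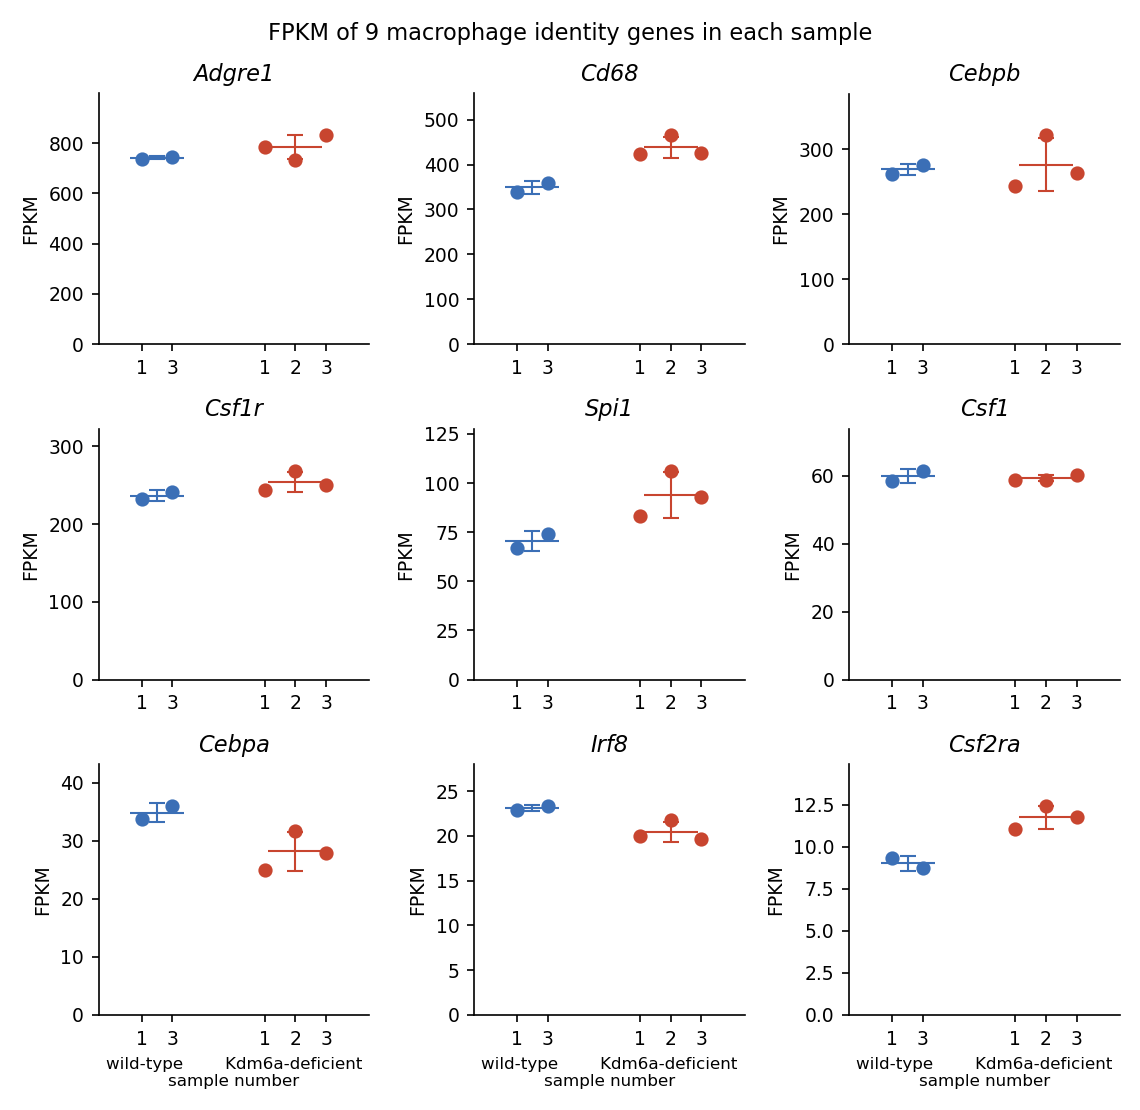
FPKM of each of the 9 genes (y axes, each from 0) in wild-type samples 1 and 3 (blue) and Kdm6a-deficient samples 1, 2 and 3 (red), with the group mean (dash) and SD (bars). Spi1, Cd68, Csf2ra and, by a small gap, Csf1r were higher in all 3 Kdm6a-deficient samples, Cebpa and Irf8 were lower in all 3. Cebpb, Adgre1 and Csf1 overlapped between genotypes.

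Among receptors and ligand, the M-CSF receptor was abundant and nearly level between genotypes, and the GM-CSF receptor alpha chain was low and 1.30 times as high on average in Kdm6a-deficient BMDMs. Csf1r (GeneID 12978) was at 231.8 and 241.4 FPKM in wild-type and 244.0, 268.6 and 250.03 FPKM in Kdm6a-deficient samples. The genotypes did not overlap, but the gap between the nearest values was small beside the spread within the Kdm6a-deficient group. Mean FPKM ± SD was 237 ± 6.78 (n = 2) in wild-type and 254 ± 12.8 (n = 3) in Kdm6a-deficient BMDMs. The log2 fold change was 0.10 (95% confidence interval −0.08 to 0.28, adjusted p = 0.572, limma). In its rank within a sample Csf1r was between the 98.4th and 98.5th percentile of genes above 0 FPKM.

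Csf1 (GeneID 12977), the ligand, was at 58.6 and 61.5 FPKM in wild-type and 58.7, 58.8 and 60.3 FPKM in Kdm6a-deficient samples. All 3 Kdm6a-deficient values fell between the wild-type values. Its log2 fold change was −0.02 (95% confidence interval −0.17 to 0.14, adjusted p = 0.930, limma). Within a sample the ratio of Csf1 to Csf1r was 0.253 and 0.255 in wild-type and 0.240, 0.219 and 0.241 in Kdm6a-deficient samples. The ratio was lower in each Kdm6a-deficient sample, with means of 0.254 ± 0.00147 (SD, n = 2) and 0.234 ± 0.0126 (SD, n = 3).

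Csf2ra (GeneID 12982) was at 9.31 and 8.70 FPKM in wild-type and 11.0, 12.4 and 11.8 FPKM in Kdm6a-deficient samples. The lowest Kdm6a-deficient sample was above the higher wild-type sample. Mean FPKM ± SD was 9.01 ± 0.43 (n = 2) in wild-type and 11.7 ± 0.684 (n = 3) in Kdm6a-deficient BMDMs. The log2 fold change of 0.35 (standard error 0.083, 95% confidence interval 0.15 to 0.54) missed the threshold (adjusted p = 0.0746, limma). The ratio of Csf2ra to Csf1r was 0.0402 and 0.0361 in wild-type and 0.0453, 0.0462 and 0.0471 in Kdm6a-deficient samples, without overlap.

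The FPKM of Csf2ra and its read counts gave different pictures of its level. The authors' mean normalized count was 2146 in wild-type and 2848 in Kdm6a-deficient BMDMs, values that drew on 1 more wild-type sample not analysed here. Per kilobase of annotated exon that count was 83.8 for each FPKM, where the median over 10565 tested genes was 17.6 and the range from the 5th to the 95th percentile was 7.09 to 32.5. The share of tested genes with a higher value was 0.246%. On the count per kilobase scale in wild-type, Csf2ra was at 748 and ranked above Cebpa (539) and Irf8 (218), whereas it was the lowest of the 9 genes in FPKM. The level of Csf2ra relative to other genes therefore depends on the scale, while its genotype difference had the same direction on both.

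The other chains and ligands of these receptors did not pass the test. Csf2rb and Csf2rb2, which encode the beta chain shared with interleukin 3 and its near-identical paralog, went from 36.4 to 42.8 FPKM and from 22.6 to 24.9 FPKM (adjusted p = 0.151 and 0.391, limma), and reads could be divided uncertainly between them. Il34, the other ligand of the M-CSF receptor, was near the filter at 1.12 and 1.18 FPKM (log2 fold change 0.02, adjusted p = 0.963, limma). Csf2, which encodes GM-CSF, was at 0.0796 and 0.0951 FPKM and was below the filter.

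Of the antigens, Adgre1 was the most abundant of the 9 genes and overlapped between genotypes, and Cd68 was 1.26 times as high in Kdm6a-deficient samples without passing the threshold. Adgre1 (GeneID 13733) was at 736.4 and 745.4 FPKM in wild-type and 785.7, 734.2 and 831.0 FPKM in Kdm6a-deficient samples. The lowest value of all was that of Kdm6a-deficient sample 2 and the highest that of sample 3. The log2 fold change was 0.08 (95% confidence interval −0.13 to 0.28, adjusted p = 0.728, limma).

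Cd68 (GeneID 12514) was at 339.4 and 359.0 FPKM in wild-type and 424.2, 465.4 and 425.8 FPKM in Kdm6a-deficient samples. Each Kdm6a-deficient sample was clear of both wild-type samples. Mean FPKM ± SD was 349 ± 13.8 (n = 2) against 438 ± 23.3 (n = 3). The log2 fold change was 0.33 (standard error 0.081, 95% confidence interval 0.14 to 0.52, adjusted p = 0.0842, limma). The direction was the same in all 14 alternative settings, and in 4 of them (quantile normalization, the replicate block, the GC trend removed and Kdm6a-deficient sample 2 left out) the adjusted p was under 0.05.

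**Figure D2:**
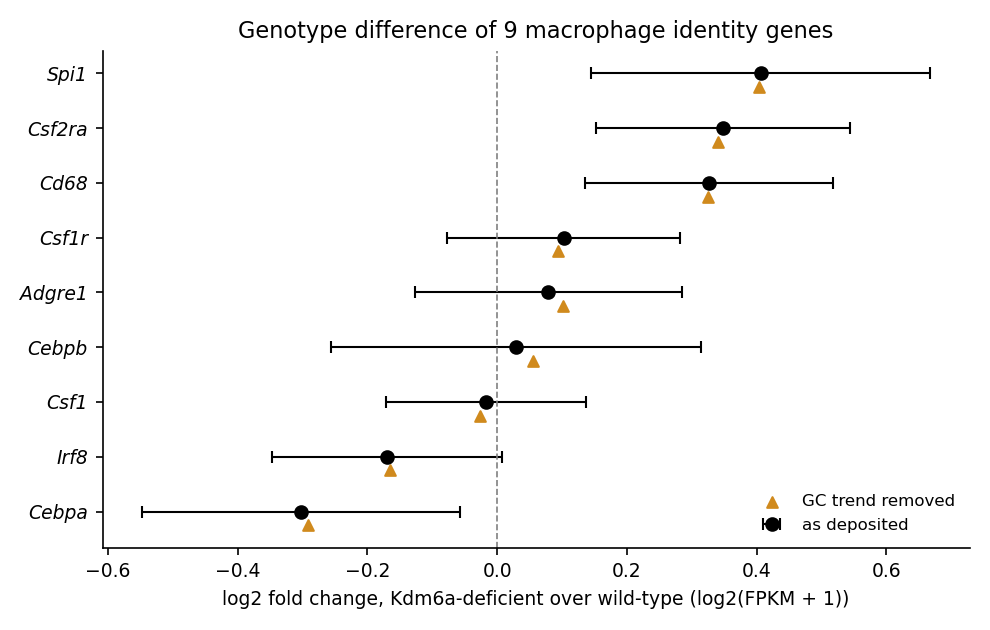
Log2 fold change of Kdm6a-deficient over wild-type BMDMs on the log2(FPKM + 1) scale (x axis) for the 9 genes, with limma's 95% confidence interval (bars), and the value after a trend with GC content was removed from each sample (triangles, a setting chosen after the data were seen). The intervals of Spi1, Csf2ra, Cd68 and Cebpa exclude 0 before adjustment over all genes, and the triangles lie close to the circles.

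The transcription factors did not move as a block. Spi1 was the member with the greatest increase, Cebpa and Irf8 were lower in each Kdm6a-deficient sample, and Cebpb was level on average with a wide spread. Spi1 (GeneID 20375) was at 66.9 and 74.0 FPKM in wild-type and 83.1, 106.3 and 92.7 FPKM in Kdm6a-deficient samples. The genotypes did not overlap, and Kdm6a-deficient sample 2 was the highest. Mean FPKM ± SD was 70.4 ± 5.01 (n = 2) against 94.0 ± 11.7 (n = 3). On the log2 scale the fold change was 0.41 (standard error 0.11, 95% confidence interval 0.14 to 0.67, adjusted p = 0.112, limma).

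Cebpa (GeneID 12606), which encodes C/EBPα, was at 33.8 and 36.0 FPKM in wild-type and 25.0, 31.7 and 27.9 FPKM in Kdm6a-deficient samples. All Kdm6a-deficient values were below both wild-type values, with sample 2 the nearest to them. Mean FPKM ± SD was 34.9 ± 1.56 (n = 2) against 28.2 ± 3.34 (n = 3). On the log2 scale the fold change was −0.30 (standard error 0.10, 95% confidence interval −0.55 to −0.06, adjusted p = 0.198, limma).

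Irf8 (GeneID 15900) was at 22.9 and 23.3 FPKM in wild-type and 19.99, 21.7 and 19.6 FPKM in Kdm6a-deficient samples. The difference was small and in 1 direction, with mean FPKM ± SD of 23.1 ± 0.334 (n = 2) and 20.4 ± 1.13 (n = 3). Its log2 fold change was −0.17 (95% confidence interval −0.35 to 0.01, adjusted p = 0.312, limma).

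Cebpb (GeneID 12608), which encodes the LPS-inducible C/EBPβ, was at 262.7 and 275.6 FPKM in wild-type and 243.3, 321.8 and 264.1 FPKM in Kdm6a-deficient samples. Kdm6a-deficient samples held both the lowest and the highest value. The log2 fold change was 0.03 (95% confidence interval −0.26 to 0.31, adjusted p = 0.937, limma), the widest interval of the 9 genes. Its sign changed in 4 of the 14 alternative settings.

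In the authors' mean normalized counts the genotypes stood in the same order as in FPKM for 8 of the 9 genes, with Spi1 at 3617 in wild-type and 4816 in Kdm6a-deficient BMDMs, Cd68 at 10065 and 12735, Cebpa at 1421 and 1183, and Irf8 at 1539 and 1398. Cebpb was the exception, at 4359 and 4258.

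Exact two-sided permutation tests over the 5 samples gave p = 0.1 for Csf2ra and Cd68 and p = 0.2 for Spi1, Cebpa, Irf8 and Csf1r, where 0.1 is the smallest p that 2 samples against 3 can give.

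Ratios within a sample set pairs of members against each other without a scaling between samples. Cebpa was at 0.129 and 0.131 times the FPKM of Cebpb in wild-type and at 0.103, 0.0984 and 0.106 times in Kdm6a-deficient samples. The groups did not overlap, and Kdm6a-deficient sample 2, in which both genes were highest within its group, had the lowest ratio, close to the others. A further pair was formed after the values had been seen and is given as a description. Spi1 was at 1.98 and 2.06 times the FPKM of Cebpa in wild-type and at 3.32, 3.36 and 3.32 times in Kdm6a-deficient samples, with means of 2.02 ± 0.0532 (SD, n = 2) and 3.33 ± 0.0203 (SD, n = 3). Spi1 to Irf8, chosen likewise, was 2.93 and 3.17 in wild-type and 4.16, 4.89 and 4.73 in Kdm6a-deficient samples.

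**Figure D3:**
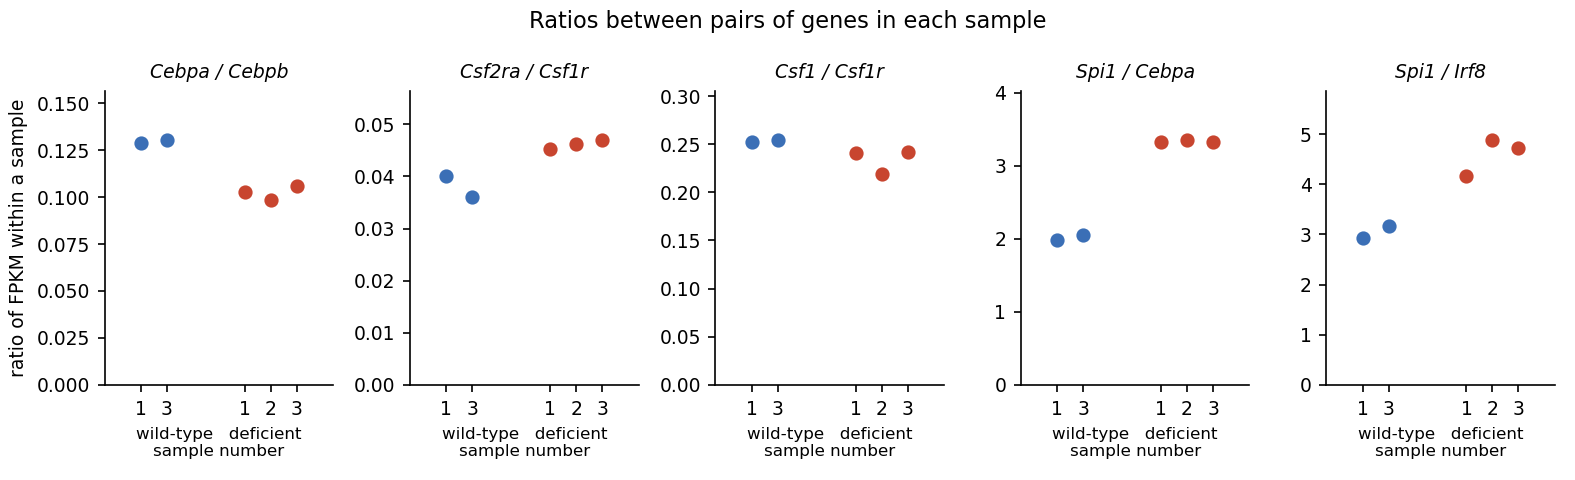
Ratio of the FPKM of 2 genes within each sample (y axes, each from 0) in wild-type samples 1 and 3 (blue) and Kdm6a-deficient samples 1, 2 and 3 (red). Cebpa to Cebpb and Csf1 to Csf1r are lower and Csf2ra to Csf1r is higher in each Kdm6a-deficient sample, and the Spi1 ratios to Cebpa and to Irf8, both chosen after the data were seen, are higher in each.

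By mean FPKM over the 5 samples the order was Adgre1 (766.5), Cd68 (402.7), Cebpb (273.5), Csf1r (247.2), Spi1 (84.6), Csf1 (59.6), Cebpa (30.9), Irf8 (21.5) and Csf2ra (10.7). Cebpb and Csf1r overlapped over the samples, and every other pair of neighbours was separate in all samples. On the authors' mean normalized count per kilobase in wild-type the order of Csf1r (3876) and Cebpb (2898) was the other way round. Members of 1 role were apart in level per length on both scales, Adgre1 being above Cd68 and Csf1r above Csf2ra.

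Kdm6a-deficient sample 2 bore on several of these values. It was the highest of its group in 7 of 9 members, against 43.1% of all tested genes, and Adgre1 and Csf1 were the exceptions. Its FPKM summed over all genes was also the largest of the 5 samples, at 433300. The other Kdm6a-deficient samples summed to 388400 and 399300, and no scaling between samples was applied in the main fit. Its log2(FPKM + 1) minus the mean of the other Kdm6a-deficient samples rose with the GC content of the longest transcript, with medians over 5 equal bins of the tested genes from −0.15 at the lowest to 0.159 at the highest GC. Cebpb (67.2% GC) deviated by 0.343, Spi1 (58.9% GC) by 0.273, Cebpa (62.6% GC) by 0.252 and Adgre1 (47.2% GC) by −0.138. Wild-type sample 3 was above sample 1 in 8 of 9 members, against 59.6% of tested genes, and its difference from sample 1 over all genes had a median of −0.138 in the lowest and 0.086 in the highest GC bin. The genotype difference itself had medians of 0.049 and 0.014 in those bins.

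**Figure D4:**
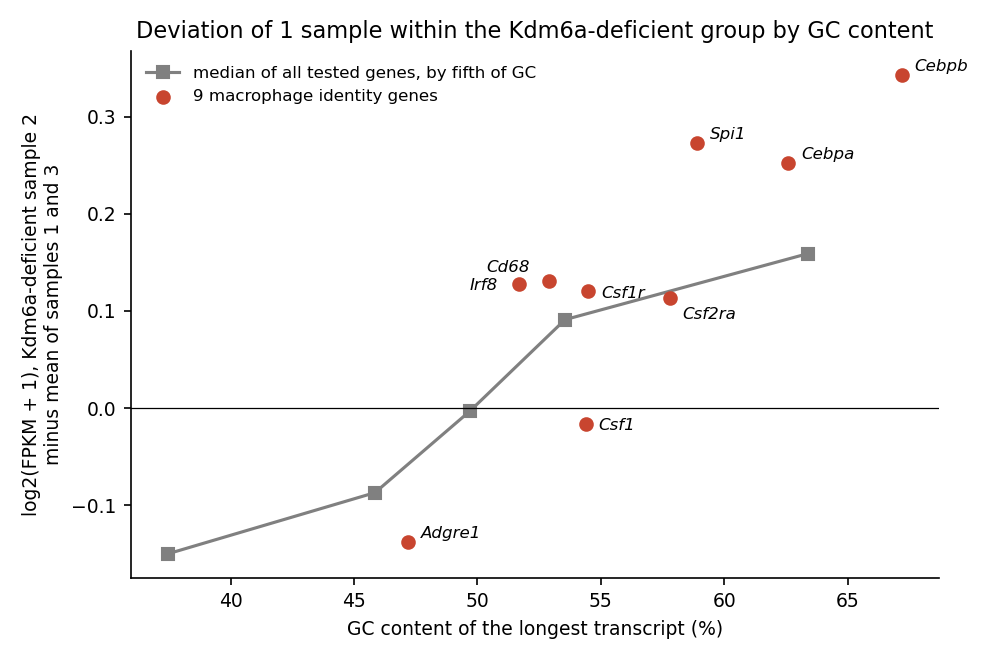
Deviation of Kdm6a-deficient sample 2 from the mean of Kdm6a-deficient samples 1 and 3 in log2(FPKM + 1) (y axis) against the GC content of the longest transcript in percent (x axis) for the 9 genes (red) and as medians of 5 equal bins of all tested genes, drawn at the middle of each bin's GC range (grey squares). The medians run from −0.15 to 0.159, and Cebpb, Spi1 and Cebpa, all rich in GC, lie highest.

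With a smooth (lowess) GC trend removed from each sample, a setting chosen after the data were seen, 4 of the 9 members passed at adjusted p under 0.05 where 7.07% of all tested genes did. These were Spi1 (log2 fold change 0.40, adjusted p = 0.0149), Cd68 (0.32, adjusted p = 0.0192), Cebpa (−0.29, adjusted p = 0.0288) and Csf2ra (0.34, adjusted p = 0.0399), all by limma. Their fold changes moved little, by contrast with their adjusted p. Without Kdm6a-deficient sample 2, Cd68 (0.28, adjusted p = 0.0399) and Cebpa (−0.39, adjusted p = 0.0434) passed, against a background of 6.25%. Cd68 was the only member called under quantile normalization (adjusted p = 0.00973), where 4.73% of all tested genes were called. With the replicate number as a block, Cd68, Spi1 and Cebpa were called where 9.14% of all tested genes were. Whether GC content had a part in the members' differences was not tested further.

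In the main fit the pathway genes around these members were called no more often than the table as a whole, which did not hold in every alternative setting. Of 34 genes of M-CSF and GM-CSF signalling, 32 were tested, 1 rose, none fell and 31 did not pass (3.12% called, against 3.91% of all tested genes, with a median log2 fold change of 0.0896). At an unadjusted p under 0.05 by limma, Kdm6a-deficient BMDMs had 9 of the 32 higher and 2 lower, where all tested genes gave 8.04% and 9.22%. With the GC trend removed 6 of the 32 were called, where 7.07% of all tested genes were. The replicate block likewise gave 6 of the 32, where 9.14% of all tested genes were called. Syk, a kinase downstream of ITAM-bearing receptors, went from 28.9 and 31.0 FPKM to 40.0, 37.4 and 41.1 FPKM (log2 fold change 0.39, standard error 0.075, adjusted p = 0.0383, limma), and it stayed past the threshold in 6 of 14 alternative settings.

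Of 37 lineage transcription factors beside the members, 33 were tested, 5 rose, 3 fell and 25 did not pass. The share called was 24.2%, against 3.91% of all tested genes, and the median log2 fold change was 0.0503. Because the list was chosen with earlier results of these data known, that share is a description alone. Spic, an ETS factor related to PU.1 and needed for red pulp macrophages, was at 11.5 and 10.8 FPKM in wild-type and 32.2, 35.6 and 33.0 FPKM in Kdm6a-deficient samples. It rose with no overlap (log2 fold change 1.51, standard error 0.077, adjusted p = 0.000444, limma). Batf, an AP-1 family factor, rose from 12.6 to 22.3 FPKM (0.77, adjusted p = 0.00508), Pparg, a lipid-sensing nuclear receptor, from 2.23 to 4.53 FPKM (0.77, adjusted p = 0.00589) and Id2, an inhibitor of basic helix-loop-helix factors, from 52.7 to 82.0 FPKM (0.63, adjusted p = 0.0076). Bhlhe40, a basic helix-loop-helix repressor, fell from 17.4 to 11.4 FPKM (−0.57, adjusted p = 0.00845), and Klf4, a zinc finger factor of monocytes, fell from 6.45 to 3.85 FPKM (−0.62, adjusted p = 0.0148). The 2 remaining genes, named after their values were seen to complete the count, were Nr1h3, which encodes the oxysterol receptor LXRα and rose (0.65, adjusted p = 0.0157), and Ddit3, which encodes the C/EBP homologous protein and fell (−0.59, adjusted p = 0.0265). Without Kdm6a-deficient sample 3, only Spic, Batf and Pparg of these factors kept their call. Ddit3 and Klf4 lost theirs without sample 1, and Ddit3 also with no filter on low values.

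Of 26 macrophage antigens beside the members, all tested, 1 rose, 2 fell and 23 did not pass. The share called was 11.5%, against 3.91% of all tested genes, and the median log2 fold change was 0.0868. This list was likewise chosen with earlier results of these data known, so the share is a description alone. Cd36, a scavenger receptor, rose from 166 ± 24.0 to 264 ± 24.0 FPKM (mean ± SD of 2 and 3 samples, log2 fold change 0.67, adjusted p = 0.026, limma). Cx3cr1, the fractalkine receptor, fell from 10.0 ± 0.914 to 5.49 ± 0.472 FPKM (mean ± SD of 2 and 3 samples, −0.77, adjusted p = 0.00878, limma). Lyz2, the gene that carries the Cre insertion, fell from 18961 ± 563 to 8835 ± 498 FPKM (mean ± SD of 2 and 3 samples, −1.10, adjusted p = 0.00722, limma). Lyz2 counts toward the 11.5%, and whether the insertion itself had a part in its fall was not tested. With no filter on low values, Cd36 and Lyz2 lost their calls. Cd36 also lost its call under quantile normalization and without Kdm6a-deficient sample 1. Leaving out wild-type sample 3 or Kdm6a-deficient sample 3 brought the antigen count to 0, and leaving out Kdm6a-deficient sample 2 brought it to 7, where 0.75%, 1.08% and 6.25% of all tested genes were called. The factor count went to 1 without wild-type sample 3 and to 4 without wild-type sample 1 (2.46% of all genes called) or Kdm6a-deficient sample 3. A fit without either wild-type sample has 1 wild-type sample left, which is assumed to vary like the Kdm6a-deficient group that alone gives the spread.

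**Figure D5:**
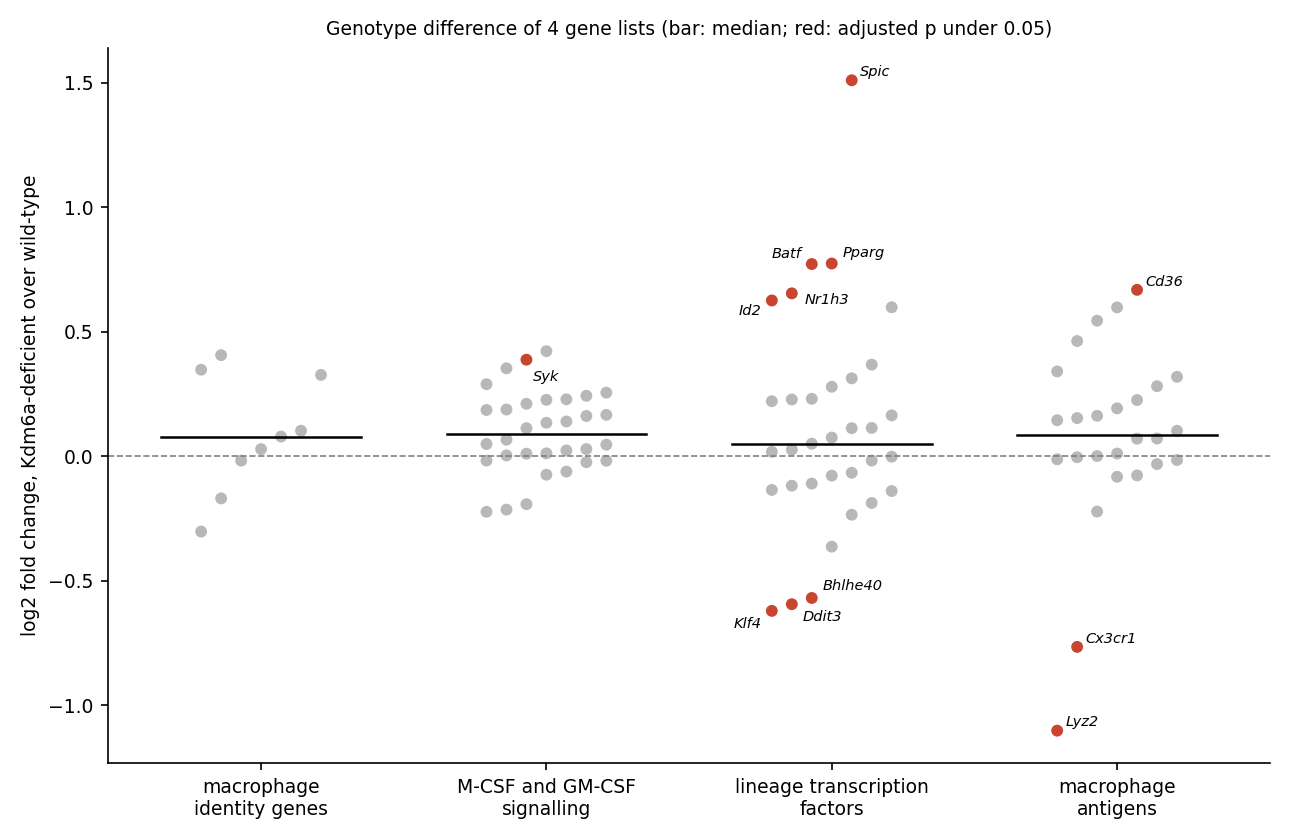
Log2 fold change of Kdm6a-deficient over wild-type BMDMs on the log2(FPKM + 1) scale (y axis) for every tested gene of 4 lists (x axis, points spread sideways for legibility), with genes at limma's adjusted p under 0.05 in red and named, the others in grey, and the median of each list as a bar. No red point falls among the 9 macrophage identity genes, and Spic at 1.51 is the highest of the transcription factors.

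Markers of other cells differed between genotypes as well. Of 70 such markers 45 were tested, 7 rose and 9 fell (35.6% called, against 3.91% of all tested genes). These lists too were chosen with earlier results of these data known, so the share is a description alone. Ccr7 and Ctsg reached 1 FPKM only in Kdm6a-deficient samples, and Cldn5 and Lum only in wild-type samples. These markers passed the filter through 1 group alone, so the filter set their direction. With 1 FPKM required in all samples, 12 of 38 tested markers were called, against 3.28% of all tested genes. Summed FPKM of 15 stromal markers was 3479 to 3680 in wild-type and 2832 to 2858 in Kdm6a-deficient samples. Col1a1, Col1a2, Dcn and Lum fell, and Cxcl12 and Vcam1 rose. Most of each sum was Col1a1 (means of 1052 FPKM in wild-type and 682 FPKM in Kdm6a-deficient BMDMs) and Col1a2 (1326 and 867 FPKM). Their falls together were larger than that of the sum, which therefore shows no fall of the other stromal markers together. The 8 endothelial markers summed to 25.5 to 25.8 FPKM and 13.2 to 16.2 FPKM, with Cdh5 and Cldn5 falling. The 9 osteoclast markers summed to 234.5 to 245.7 FPKM and 203.0 to 230.4 FPKM, with Ctsk, Dcstamp and Mmp9 falling. Of the other tested osteoclast markers, Acp5 (means of 121 FPKM in wild-type and 129 FPKM in Kdm6a-deficient BMDMs) and Tnfrsf11a (11.0 and 12.4 FPKM) were higher. Itgb3 and Nfatc1 were lower, and none of these passed. The 10 dendritic cell markers summed to 12.99 to 13.8 FPKM and 23.2 to 27.1 FPKM, but Itgax, which macrophages also express, made up 12.2 and 12.8 FPKM of the wild-type sums. Only Itgax and Ccr7 of the 10 were tested, and both rose, Ccr7 having passed the filter through the Kdm6a-deficient samples alone. The defining markers Xcr1 and Cd209a were listed at 0 in every sample, and Flt3 and Zbtb46 were at 0.039 and 0.48 FPKM in wild-type and 0.018 and 0.38 FPKM in Kdm6a-deficient BMDMs. Of 6 tested monocyte markers 2 rose (Ly6c2 and Plac8), of 9 tested neutrophil markers 1 rose (Ctsg), and none of either list fell. With Kdm6a-deficient samples left out in turn, Plac8 and Ctsg lost their call each time. Col1a1 and Dcstamp lost theirs without sample 1 and without sample 3. Ly6c2, Col1a2, Cxcl12, Ccr7 and Mmp9 lost theirs without sample 3, and the remaining called markers kept theirs in these fits. Leaving out either wild-type sample took Cldn5 and Lum below the filter. Calls of the other markers in fits with 1 wild-type sample left are not listed here. The monocyte markers summed to 149.0 to 150.3 FPKM and 161.2 to 173.0 FPKM, and the neutrophil markers to 2026 to 2143 FPKM and 2033 to 2606 FPKM. Neither of the 2 tested lymphoid and mast cell markers passed. The 9 macrophage identity genes summed to 1762 to 1825 FPKM in wild-type and 1895 to 2021 FPKM in Kdm6a-deficient samples. The part of other cells in the members' differences was not tested.

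Over the 5 samples, the profile most like that of Spi1 among tested genes averaging 5 FPKM or more was shown by Slc25a10, Tmem120a and Myl9, with root mean square differences of 0.0272, 0.028 and 0.0312 in centred log2(FPKM + 1). None of these passed the test by limma. Like Spi1, all 3 were rich in GC (60.6%, 58.1% and 56.6%) and highest in Kdm6a-deficient sample 2. The part of GC content in this likeness was not tested.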

How the data were processed

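The RNA-seq samples were 2 wild-type and 3 Kdm6a-deficient LPS-treated BMDM samples, grouped by their labels. The deposited values are FPKM per gene, and for expression levels the study's methods name TopHat and Cufflinks without saying which step each did. Per the labels a TruSeq kit was used, whereas the methods name a VAHTS kit. The submitters' processing notes list Bowtie 0.12.2 and the builds mm8 and mm9 without their roles. The same deposited table gives a signal value for each genotype, the authors' mean normalized count from DESeq, which drew on 1 more wild-type sample not analysed here. Its fold change and p-value columns hold the authors' comparison and were not used.

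The members and gene lists were chosen with earlier results of these data known. Differences were fitted with limma-trend on log2(FPKM + 1), which understates the change of low genes, for genes reaching 1 FPKM in at least 2 of the samples. The 5 samples entered 1 fit without a block, with Benjamini-Hochberg adjustment over 10893 genes and a threshold of 0.05. Intervals are at the 95% level from limma's moderated variance. Depth is unknown, so the precision rests on the spread between samples. Named genes were the 9 members, Kdm6a, up to 6 called genes of each list by adjusted p, Il34, Csf2, Csf2rb and Csf2rb2, called markers of other cells, and the 3 genes most like the member with the greatest fold change. Exon length and GC content came from GENCODE vM21 by symbol, with a GC value for 97% of tested genes, and 250 bases before each start from RefSeq (GRCm38.p6). Gene symbols stored as dates (27) were restored through the GeneID.

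Alternatives were a pseudocount of 0.1, other filters, 3 other scalings, a replicate block, limma without a trend, each sample left out and, added after the data were seen, removal of a lowess trend with GC content, for which genes with no GC value were set to the median. The fit was tested on simulated data. Software comprised limma 3.58.1 in R 4.3.3, and pandas 2.3.3 with matplotlib 3.10.9 in Python 3.11.15.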

Additional observations from a re-analysis of the deposited data

How the results depend on the processing

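Of 126 member fold changes (9 genes in 14 alternatives), 111 kept their direction and side of the threshold, 10 came to pass it and 5 turned sign. The turns were Csf1 without wild-type replicate 3 (0.017) and Cebpb under quantile normalization (−0.026), without wild-type replicate 1 (−0.0058), and at −0.086 both without Kdm6a-deficient replicate 2 and with the replicate block. Il34 turned to −0.030 without wild-type replicate 1 and to −0.13 in the last pair of settings. With a sample left out, Csf1 ran from −0.052 to 0.017, Cebpb from −0.086 to 0.12 and Il34 from −0.13 to 0.14. Called members numbered 1 under quantile normalization, 3 with the replicate block (Cd68, Spi1 and Cebpa), 4 with the GC trend removed and 0 to 2 with a sample left out. Genes called over the whole table numbered 996 with the block, 770 (354 higher, 416 lower) with the GC trend removed and 81 to 678 with a sample left out. Of 32 tested genes of M-CSF and GM-CSF signalling (34 with no filter), 0 were called with no filter, upper quartile scaling or no trend. The count was 2 with median of ratios scaling, 6 with the block, 6 with the GC trend removed and 0 to 3 with a Kdm6a-deficient sample left out. Of 26 tested antigens, 1 was called with no filter, 5 with quantile or upper quartile scaling and 12 with the block. The antigen count was 8 with the GC trend removed and 0 to 7 with a Kdm6a-deficient sample left out. Over all tested genes the share called was 2.46% with no filter, 4.15% with upper quartile scaling, 3.72% with no trend and 4.11% with median of ratios scaling. It was 4.73% with quantile normalization, 9.14% with the block, 7.07% with the GC trend removed and 1.08% to 6.25% with a Kdm6a-deficient sample left out. Transcription factors ran from 1 to 9 and markers of other cells from 4 to 17 with a sample left out. The log2 difference of the Csf2ra to Csf1r ratio (0.28) ran from 0.20 to 0.36. The labels do not say that a replicate number marks a shared source. Only numbers 1 and 3 occur in both genotypes, with deviations from the genotype mean that correlated at 0.432 and −0.144. The 2 wild-type deviations mirror each other, so these are not separate checks and cannot decide whether a source was shared. For want of a label, the samples were read as sharing only a number. The block leaves Kdm6a-deficient replicate 2 without a partner. Without a wild-type replicate, the lone one left is assumed to vary like the Kdm6a-deficient group. The causes of these moves were not tested. Count-based tests were not run, for want of counts by sample.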
